A study of Mus musculus with 9 samples.

Results

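The Skint genes encode membrane proteins of the butyrophilin family, with immunoglobulin-like outer domains, that are made mainly by keratinocytes and by epithelial cells of the thymus. The name stands for selection and upkeep of intraepithelial T cells. Skint1, the founding member, is needed in the fetal thymus for the maturation of the γδ T cells that later settle in the mouse epidermis as dendritic epidermal T cells, and the roles of most other members are less well defined. Esrp1 and Esrp2 are epithelial RNA-binding proteins that regulate alternative splicing. The 10 genes Skint1 to Skint10 were taken by their symbols from an expression table of 38203 gene rows, in which each symbol had 1 row, and all 10 passed the filter of an average above 0.1 FPKM, sequenced fragments normalised for the length of the exons and for how many fragments the library had mapped, in at least 1 genotype, which left 16897 genes.

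RNA was sequenced from the epidermis of individual E18.5 mouse embryos of a mixed C57BL6/129Sv background crossed back to C57BL6, in 9 libraries. WT embryos (2 libraries) carried 4 working Esrp alleles, KO embryos (3 libraries) lacked Esrp1 and kept 2 alleles of Esrp2, KH embryos (2 libraries) lacked Esrp1 and were heterozygous for Esrp2, and DKO embryos (2 libraries) lacked both genes. The alleles were present in the whole embryo, so that the thymus and every layer of the skin carried them too, and nothing in them restricted the loss to keratinocytes. One passage of the sample descriptions gives the controls as lacking Esrp2, whereas every genotype label calls them wild type. Esrp2 stood at 118 and 136 FPKM in the 2 WT libraries, at 88.1, 88.4 and 131 in those of KO, at 38.6 and 89.5 in those of KH, and at 0.0843 and 0.0463 in the 2 DKO libraries. KH replicate 2, with 1 allele of Esrp2, was thus no lower than KO replicates 1 and 2, with 2 alleles. Esrp1 stood at 119 and 142 FPKM in WT and between 18.2 and 55.1 in the 7 libraries without it, a level that covers the whole gene and not the deleted exons alone.

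The libraries differed in ways that the genotypes did not account for. The summed level of 12 genes of the granular and cornified layers, the outermost living and dead layers of the epidermis, was 9429, 8430 and 10295 FPKM in KO replicate 1, KH replicate 1 and DKO replicate 2, against 20943 to 25250 FPKM in the other 6 libraries. The 10 Skint genes summed to 178, 209 and 139 FPKM in those 3 libraries and to 321 to 486 FPKM in the other 6. Levels of Xist and of genes of the Y chromosome showed that all 3 KO embryos were female and all KH and DKO embryos male, with 1 WT embryo of each sex, so that sex and genotype cannot be fully told apart. FPKM values carry no read counts, so that no counting interval is given for them. In a bulk sample, fewer cells of a type and less RNA per cell cannot be told apart.

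**Figure D1:**
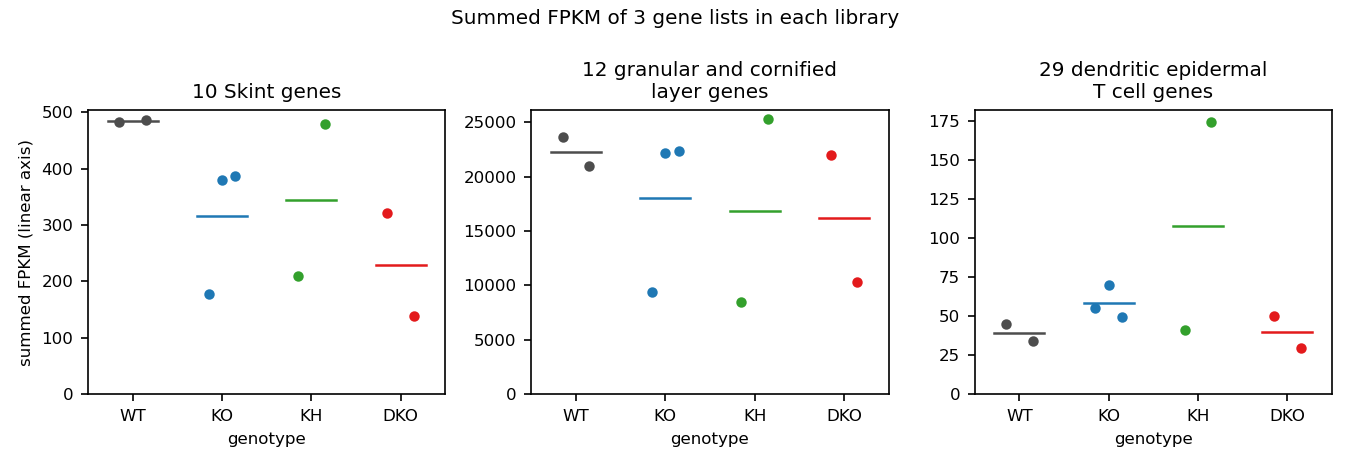
Summed FPKM (vertical axis, linear) of the 10 Skint genes, of 12 granular and cornified layer genes and of 29 dendritic epidermal T cell genes, by genotype (horizontal axis), with a point for each library and a bar for the mean. The same 3 libraries, 1 each of KO, KH and DKO, are lowest for the Skint genes and for the layer genes, and KH replicate 2 is highest for the T cell genes.

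The 10 genes lie in 1 cluster on chromosome 4 (GRCm38, GENCODE M21), from the start of Skint8 at 111919392 to the end of Skint5 at 113999503, in the order Skint8, Skint7, Skint1, Skint4, Skint3, Skint9, Skint2, Skint10, Skint6 and Skint5. Skint9, Skint10, Skint6 and Skint5 are on the minus strand. All are annotated as protein coding. Skint5 and Skint6 are the longest, spanning 521613 and 482358 bp, and the others span between 15301 and 96061 bp. The members are copies of each other to different degrees. The coding sequences of Skint7 and Skint8 were 91.8% identical, those of Skint5 and Skint6 89.2%, those of Skint9 and Skint10 86.9% and those of Skint2 and Skint4 84.4%, over the aligned bases. Each gene of these 4 pairs was the closest relative of the other. Stretches of 100 bases found unchanged in another member existed only in Skint7 and Skint8, where they made up 3.49% and 2.95% of all such stretches, so that reads of these 2 genes could be exchanged in small part. With up to 3 mismatches the share was between 6.89% and 9.80% for Skint5, Skint6, Skint7 and Skint8, and 0 for the other 6 members.

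The relation of the copies extends in front of the genes. In RefSeq windows reaching from 250 bases before to 50 bases after the start of each gene (GRCm38.p6, 11 windows for the 10 genes), the windows of Skint5 and Skint6 were identical at 269 of 300 bases. The longest word held by the windows of at least 5 members had 14 letters and stood in the windows of Skint1, Skint3, Skint4, Skint5 and Skint6. It was in 5 of all 32851 mouse promoter windows, on either strand, which is 0.0152% and means these 5 alone. The word was taken for its length and not for the levels of the genes. The log2 fold changes of DKO against WT were -0.08 for Skint1, -0.84 for Skint6 and -1.65 for Skint3. They were -2.39 for Skint4 and -3.18 for Skint5. Skint2, with -3.03, and Skint8, with -0.64, lacked the word. The stretches around the word come from the windows of the 5 genes that held it. They are written 5′ to 3′ on the strand of the gene, with the shared word in capitals, and lie at chr4:112006019-112006074 (plus strand), chr4:112232119-112232178 (plus), chr4:112081400-112081459 (plus), chr4:113999695-113999753 (minus) and chr4:113287165-113287223 (minus).
Skint1: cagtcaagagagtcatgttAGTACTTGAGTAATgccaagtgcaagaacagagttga
Skint3: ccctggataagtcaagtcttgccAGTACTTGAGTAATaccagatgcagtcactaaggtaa
Skint4: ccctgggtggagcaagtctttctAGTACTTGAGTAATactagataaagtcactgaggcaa
Skint5: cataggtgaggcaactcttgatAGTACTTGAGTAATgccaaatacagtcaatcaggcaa
Skint6: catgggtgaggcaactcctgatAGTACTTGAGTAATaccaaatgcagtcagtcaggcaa

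The word began 228 bases before the start in both Skint5 and Skint6, 231 before it in Skint1 and 103 in Skint3. Skint4 has 2 windows, and only 1 of them held the word, beginning 47 bases before the start used there. That window, chr4:112081220-112081519, lies inside the annotated span of Skint4, which begins at 112072016. Words of known epidermal factors were looked for on both strands of the same windows. The AP-1 word TGANTCA was in none of the 11 windows and in 7.81% of all mouse windows. The Grainyhead word AACCNGTT was in the window of Skint8 alone among the members and in 2.09% of all windows. These are matches of letters in a short window only.

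In WT epidermis all 10 genes were expressed, and Skint9 stood far above the rest. Skint9 averaged 224 ± 28.2 FPKM (SD, n = 2 WT libraries), followed by Skint10 with 50.4 ± 9.38, Skint1 with 42.5 ± 12.5, Skint2 with 34.5 ± 7.54 and Skint3 with 31.6 ± 4.62 FPKM. Skint6 averaged 26.7 ± 3.16, Skint7 25.2 ± 0.357, Skint4 21.1 ± 7.78, Skint5 18.6 ± 4.27 and Skint8 10.4 ± 0.630 FPKM. The values of the 2 WT libraries overlapped between each gene and the next in this order, except that both values of Skint9 lay above those of Skint10 and both values of Skint5 above those of Skint8. Skint9 alone made up between 39.98% and 54.3% of the summed FPKM of the family in all 9 libraries. Of the relatives of the family, Skint11, which lies just beyond the cluster, averaged 1.53 FPKM in WT, and of the 12 butyrophilin family relatives listed only Skint11 and Btn1a1 passed the filter.

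The comparison of DKO with WT epidermis asks what changes when both Esrps are missing. The size of the difference varied widely and without a gap between the genes. Skint5 averaged 13.6-fold lower in DKO than in WT, Skint2 8.89-fold, Skint4 6.59-fold, Skint10 3.90-fold, Skint3 3.19-fold and Skint7 2.82-fold. Skint9, Skint8 and Skint6 averaged 1.81-fold, 1.62-fold and 1.49-fold lower, and Skint1 averaged 42.5 FPKM in WT and 42.0 in DKO. No member passed the call of an adjusted p below 0.05 with an over 2-fold difference (limma across all genes with Benjamini-Hochberg adjustment), against 0.249% of all genes called lower. At an unadjusted p below 0.05, 5 of 10 members were lower, against 7.6% of all genes. The median log2 fold change was -1.52 over the members and 0.02 over all genes tested.

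Skint5 was at 15.6 and 21.6 FPKM in the WT libraries, at 5.90, 10.8 and 14.5 in the KO libraries, at 4.83 and 12.9 in those of KH, and at 2.36 and 0.363 in DKO. Both DKO values were below those of every other library, and all KO and KH values were below both WT values. The log2 fold change of DKO against WT was -3.18 (SE 0.56, limma adjusted p = 0.0505, lower in 2 of 2 DKO libraries than in either WT library).

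The WT libraries held Skint2 at 29.1 and 39.8 FPKM and the KO libraries at 16.3, 26.8 and 46.9, while the KH libraries held it at 17.8 and 36.4 and the DKO libraries at only 6.19 and 1.57. The WT, KO and KH libraries overlapped and the DKO libraries stood apart below all of them. The log2 fold change against WT was -3.03 (SE 0.59, limma adjusted p = 0.0746).

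Skint4 was at 15.6 and 26.6 FPKM in WT, at 6.16, 8.59 and 15.9 in the KO libraries, at 6.89 and 9.63 in those of KH, and at 4.16 and 2.23 in DKO. This gene had intermediate values in KO and KH, with KO replicate 3 just inside the WT range. Its log2 fold change in DKO was -2.39 (SE 0.44, limma adjusted p = 0.0598). The paper that reported these data also found lower Skint4 by real-time RT-PCR in DKO epidermis. It found the same in epidermis of newborn mice without Esrp2 that lost Esrp1 through a Krt14-Cre transgene. Those assays are not part of the values used here.

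Skint10 was at 57.0 and 43.8 FPKM in WT, at 21.96, 43.4 and 36.3 in the KO libraries, at 25.0 and 43.0 in those of KH, and at 17.9 and 7.95 in DKO. Here too the DKO libraries were the lowest of all 9, and the log2 fold change against WT was -1.97 (SE 0.44, limma adjusted p = 0.111). Skint3 was at 28.4 and 34.9 FPKM in WT, at 12.8, 29.5 and 32.9 in the KO libraries, at 17.7 and 27.2 in those of KH, and at 13.4 and 6.46 in DKO. Its DKO values were below both WT values but overlapped with KO replicate 1, and the log2 fold change was -1.65 (SE 0.47, limma adjusted p = 0.188).

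Both DKO libraries were below all 7 others for 4 of 10 members, Skint2, Skint4, Skint5 and Skint10, a count made after their values were seen, against 5.56% of all genes. They were below both WT libraries for 8 of 10, against 26.4% of all genes. The 2 exceptions were Skint1 and Skint6.

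Skint1 was at 33.6 and 51.3 FPKM in WT, at 13.2, 34.1 and 41.8 in the KO libraries, at 19.3 and 32.6 in those of KH, and at 57.1 and 26.8 in DKO. DKO replicate 1 held the highest value of this gene in any library. The log2 fold change of DKO against WT was -0.08 with a 95% interval from -1.35 to 1.19 (limma adjusted p = 0.963), an interval wide enough to hold an over 2-fold difference either way. Skint6 was at 24.5 and 28.93 FPKM in WT, at 9.35, 32.2 and 22.9 in the KO libraries, at 12.5 and 28.4 in those of KH, and at 28.85 and 6.93 in DKO. The 2 DKO libraries thus differed 4.16-fold, with replicate 1 between the WT values and replicate 2 below both.

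Skint7 was at 24.9 and 25.4 FPKM in WT, at 11.1, 11.02 and 14.99 in the KO libraries, at 6.99 and 41.7 in those of KH, and at 9.24 and 8.59 in DKO. Skint8 was at 10.8 and 9.91 FPKM in WT, at 3.71, 5.27 and 6.01 in the KO libraries, at 2.85 and 12.8 in those of KH, and at 7.52 and 5.25 in DKO. These neighbours shared a pattern in which the 2 KH libraries lay farthest apart, 5.96-fold for Skint7 and 4.49-fold for Skint8, with the WT values between them. Skint9 was at 244 and 204 FPKM in WT, at 77.4, 179 and 155 in the KO libraries, at 95.3 and 235 in those of KH, and at 174 and 72.6 in DKO. The log2 fold changes of Skint6, Skint7, Skint8 and Skint9 in DKO were -0.84, -1.40, -0.64 and -0.98, with limma adjusted p between 0.365 and 0.604.

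**Figure D2:**
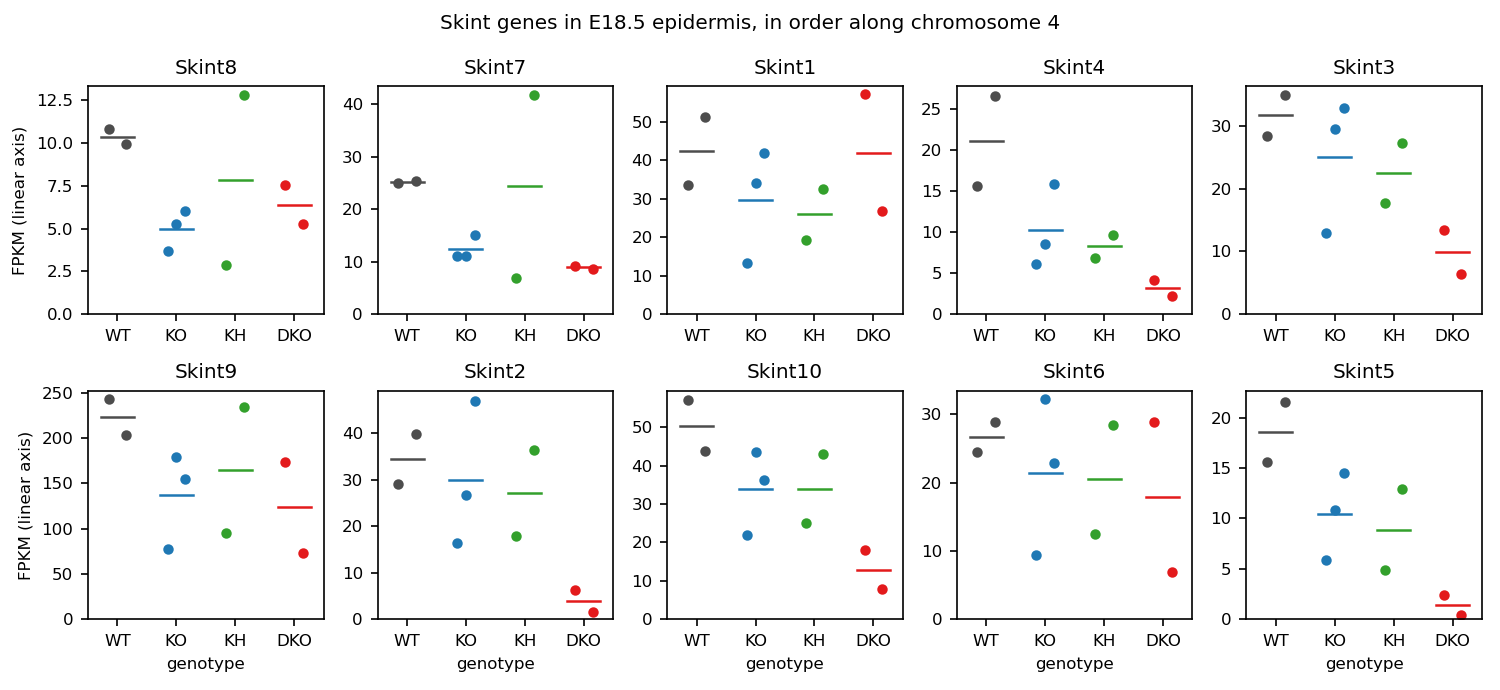
FPKM (vertical axis, linear, a scale of its own in each panel) of the 10 Skint genes in order along chromosome 4, by genotype (horizontal axis), with a point for each library and a bar for the mean. The DKO points of Skint4, Skint2, Skint10 and Skint5 are below the other 7 points of their panel, while those of Skint1 reach from 26.8 to 57.1 FPKM.

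The calls in this comparison depended on the fit. With only WT and DKO fitted, 5 members were called lower, Skint2, Skint4, Skint5, Skint7 (limma adjusted p = 0.0164) and Skint10, while Skint3 was not (limma adjusted p = 0.0567). In that fit 1.58% of all genes were called lower. With the summed level of the granular and cornified layer genes as a term, an alternative chosen after the data were seen, Skint2, Skint4, Skint5 and Skint10 were called, with log2 fold changes between -2.71 and -1.61, against 0.888% of all genes called lower. Without KO replicate 1, KH replicate 1 and DKO replicate 2 together, which leaves 1 DKO library that is assumed to vary like the other groups, none was called, but the log2 fold changes of Skint5, Skint2 and Skint4 were still -2.52, -2.29 and -2.05, and those of Skint1 and Skint6 were 0.45 and 0.11. The sizes rested in part on single DKO libraries. Without DKO replicate 1 the log2 fold changes of Skint5, Skint2, Skint9 and Skint6 were -3.83, -3.77, -1.60 and -1.80, and without DKO replicate 2 they were -2.52, -2.29, -0.35 and 0.11.

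Loss of Esrp1 alone, KO against WT, gave lower averages for all 10 members, with log2 fold changes between -1.02 (Skint4) and -0.30 (Skint2) and a median of -0.70. None was called, against 0.0296% of all genes called lower, and Skint4 alone had an unadjusted p below 0.05 (0.0322, limma adjusted p = 0.853), against 2.27% of all genes. All 3 KO libraries were below both WT libraries for 5 of 10 members, Skint5, Skint7, Skint8, Skint9 and Skint10, against 12.1% of all genes. Skint7 averaged 12.4 ± 2.28 FPKM in KO (SD, n = 3) and Skint8 4.996 ± 1.17, lower than in WT by 2.04-fold and 2.07-fold. Without KO replicate 1 the median was -0.37, and Skint2 and Skint6 were higher than in WT by 0.057 and 0.028 on the log2 scale.

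In KH epidermis, which kept 1 Esrp2 allele, all 10 averages were also lower than in WT on the log2 scale, with log2 fold changes between -1.22 (Skint4) and -0.40 (Skint2) and a median of -0.58. None was called, against 0.0237% of all genes called lower, and again Skint4 alone had an unadjusted p below 0.05 (0.0222, limma adjusted p = 0.980), against 2.09% of all genes. Both KH libraries were below both WT libraries for 5 of 10 members, Skint1, Skint3, Skint4, Skint5 and Skint10, against 16.6% of all genes. This direction rested on 1 library, since without KH replicate 1 only 5 of 10 members were lower and the median was -0.07. The 3 comparisons with WT share the same 2 WT libraries, and the lower values in all 3 are not independent of each other.

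The genotypes without Esrp1 were also compared with each other. In DKO, 8 of 10 members had a log2 fold change below 0 against KO and 8 of 10 against KH, with medians of -0.82 and -1.02. Against KO, the log2 fold changes of the members with an unadjusted p below 0.05 were -2.73 for Skint2 (SE 0.54, limma adjusted p = 0.0918), -2.34 for Skint5, -1.37 for Skint10, -1.36 for Skint4 and -1.23 for Skint3. These were 5 of 10 members, against 3.13% of all genes lower at that p, and none was called, against 0.118% of all genes called lower. Against KH, those below that p were -2.62 for Skint2 (SE 0.59, limma adjusted p = 0.206), -2.07 for Skint5, -1.38 for Skint10, -1.16 for Skint4 and -1.15 for Skint3. These were again 5 of 10, against 2.51% of all genes, and none was called, against 0.0414% of all genes called lower. These comparisons share the DKO libraries with each other and with the comparison to WT.

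KH against KO, which differ by 1 Esrp2 allele, gave a median log2 fold change of -0.05 over the members, 6 lower and 4 higher. By limma no member and 0 of all 16897 genes were called (0.0%), and at an unadjusted p below 0.05 there were 0 of 10 members, against 1.09% of all genes in either direction. A line fitted through the number of working Esrp alleles (4 in WT, 2 in KO, 1 in KH, 0 in DKO) gave a median of 0.33 on the log2 scale for each added allele over the members. The steepest was Skint5 with 0.71 (SE 0.16, limma adjusted p = 0.179), and Skint4 had 0.55 (SE 0.10, limma adjusted p = 0.153). No gene of the table was called (0.0%), and at an unadjusted p below 0.05 there were 5 of 10 members, against 8.33% of all genes higher with more alleles.

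**Figure D3:**
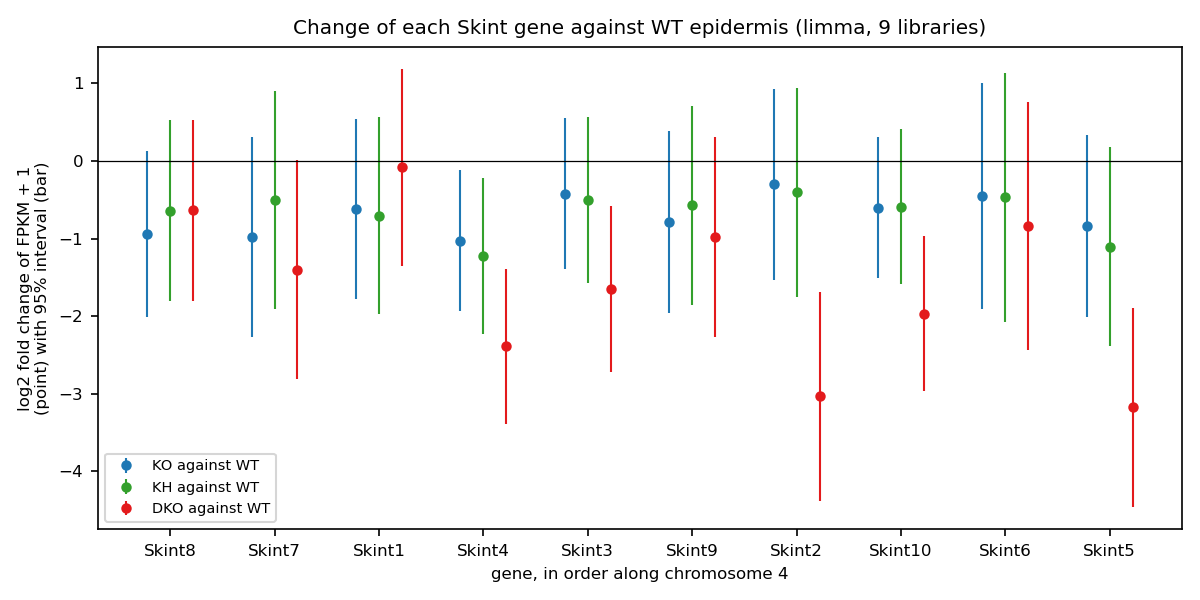
Log2 fold change of FPKM + 1 against WT (vertical axis; points, with 95% intervals from limma as bars) for the 10 Skint genes in order along chromosome 4 (horizontal axis), in KO, KH and DKO. The DKO points run from -0.08 for Skint1 to -3.18 for Skint5, with Skint6, at -0.84, between Skint10 and Skint5.

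Low values in DKO did not follow the order of the genes along the chromosome. Skint10, Skint6 and Skint5 are neighbours, with log2 fold changes of -1.97, -0.84 and -3.18, and so are Skint7, Skint1 and Skint4, with -1.40, -0.08 and -2.39. Of 13 other genes of the table that lie among the Skint genes, 3 passed the filter, all of them predicted genes, with at most 0.713 FPKM in any library (Gm12816). The 5 nearest tested genes on each side had log2 fold changes in DKO between -0.70 (Cmpk1, a nucleotide kinase, limma adjusted p = 0.346) and 0.57 (Bend5). Skint11 was at 1.403 and 1.66 FPKM in WT and at 1.23 and 0.411 in DKO, with a log2 fold change of -0.51 (limma adjusted p = 0.430).

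Closest relatives were set against each other within each library, where the scaling of the library cancels. Each of the 4 pairs of reciprocal closest relatives was expressed as the FPKM of the member with the lower WT level divided by that of the other. The ratio of Skint5 to Skint6 was 0.636 and 0.747 in WT, 0.631, 0.335 and 0.635 in the KO libraries, 0.387 and 0.454 in those of KH, and 0.0819 and 0.0523 in DKO. The ratio of Skint10 to Skint9 was 0.234 and 0.215 in WT, 0.284, 0.243 and 0.235 in the KO libraries, 0.262 and 0.183 in those of KH, and 0.103 and 0.110 in DKO. In both pairs the DKO libraries were below all others. Skint5 and Skint6 are the pair whose windows around the start were identical at 269 of 300 bases.

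For the other pairs the DKO libraries were above the rest. The ratio of Skint8 to Skint7 was 0.814 and 0.611 in DKO against 0.307 to 0.478 in the other 7 libraries. The ratio of Skint4 to Skint2 was 0.673 and 1.42 in DKO against 0.265 to 0.668 in the other 7, so that DKO replicate 1 was only just outside. In all 4 pairs, then, the DKO libraries did not overlap with the others, which in a two-sided exact permutation test of 2 DKO libraries against 7 gives p = 0.0556 for each (adjusted over the 4 pairs, also 0.0556), the smallest p that this design allows. The 7 other libraries pool 3 genotypes in this test, which cannot pass 0.05. Both DKO libraries were already below all 7 others for Skint2, Skint4, Skint5 and Skint10, so that the ratios with these genes are not independent of those levels. How often the ratios of other gene pairs part in this way was not counted. The mean log2 ratios differed by -3.01 for Skint5 to Skint6, -1.14 for Skint10 to Skint9, 0.86 for Skint8 to Skint7 and 1.31 for Skint4 to Skint2.

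**Figure D4:**
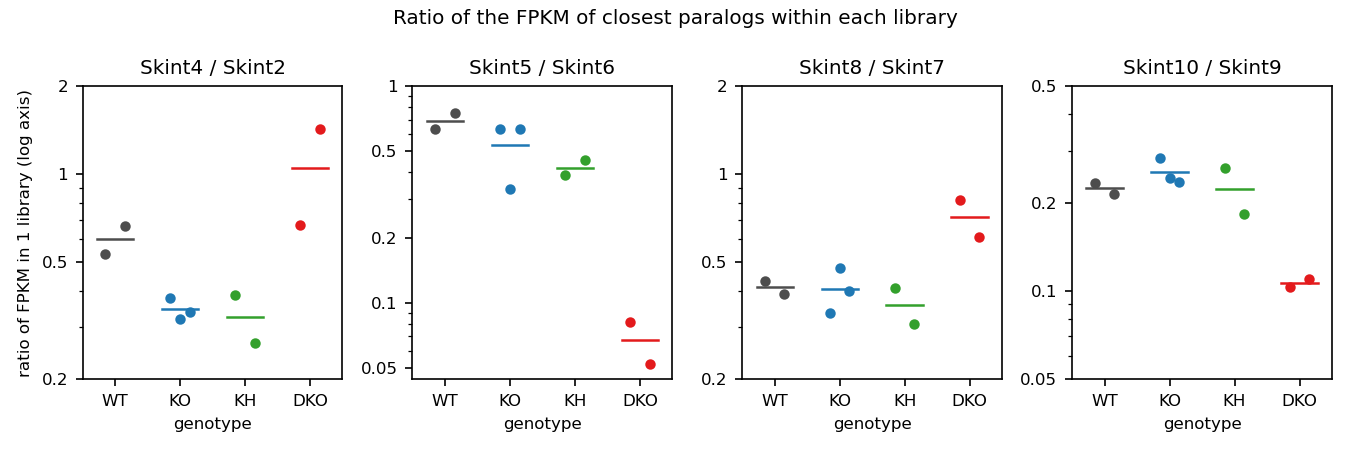
Ratio of the FPKM of each member to that of its closest relative in the same library (vertical axis, log scale, a range of its own in each panel), by genotype (horizontal axis), with a point for each library and a bar for the mean. The DKO points are outside the range of the other 7 libraries in all 4 panels, lower for Skint5 to Skint6 and Skint10 to Skint9 and higher for the other pairs.

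The share of each member in the summed level of the family was also followed. Skint1 made up 17.8% and 19.3% of the summed Skint FPKM in the DKO libraries and 6.80% to 10.8% in the other 7. Skint2 made up 1.93% and 1.13% in DKO and 6.03% to 12.1% in the others, and Skint5 0.736% and 0.261% against 2.31% to 4.44%. Over the 9 libraries the levels of the members correlated with each other to different degrees, with Pearson's r on log2(FPKM + 1) between 0.16 (Skint1 with Skint2) and 0.97 (Skint2 with Skint5) and a median of 0.69 over 45 pairs. The libraries share the differences in layer genes given above.

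The genes whose pattern over the 9 libraries was most like the mean standardised profile of the 10 members, among 12187 other genes averaging at least 1 FPKM, were Ttpal, Zfp949, Mxi1, Atp8a1, Cnot6l, Cul5, Slc46a2 and Gramd1c, each with a Pearson's r of 0.99. Single members had different nearest genes. For Skint2 they were Bbox1, an enzyme of carnitine synthesis, H2-T22, a nonclassical class I histocompatibility gene known as a ligand of some γδ T cell receptors, and Lonp2, a protease of peroxisomes. H2-T22 was at 42.1 and 51.1 FPKM in WT and at 18.48 and 10.5 in DKO. For Skint5 they were Gm13536, Fmo2 and again Lonp2, and for Skint3 they were Slc46a1, the granular and cornified layer gene Hrnr and 2310081O03Rik.

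The cells that Skint1 serves to select were examined next. Of 29 listed genes of dendritic epidermal T cells in the table, 27 passed the filter, none was called in DKO against WT, and their median log2 fold change was 0.21, with 20 higher and 7 lower. Cd3g, a chain of the T cell receptor complex, was at 3.08 and 1.41 FPKM in WT, at 4.31, 11.8 and 4.48 in the KO libraries, at 2.11 and 26.1 in those of KH, and at 8.78 and 1.94 in DKO. Tcrg-V5, the γ chain segment of these cells, was at 2.33 and 0.683 FPKM in WT, at 1.24, 2.45 and 2.50 in the KO libraries, at 1.89 and 15.5 in those of KH, and at 3.11 and 0.379 in DKO. KH replicate 2 was the highest library for both genes, and the list summed to 174 FPKM there against 29.4 to 69.9 FPKM in the other 8. The DKO and WT values of both genes overlapped. Ccr4, a chemokine receptor of skin-homing T cells, had the most negative log2 fold change of the list, at 6.59 and 8.34 FPKM in WT and 0.614 and 0.954 in DKO (log2 fold change -2.25, limma adjusted p = 0.0598). Ccr4 did not follow the list in KH replicate 2, where it was at 5.41 FPKM, below both WT values.

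Of 13 tested genes for signals from keratinocytes to epidermal T cells, 2 were called in DKO against WT, both higher, against 0.479% of all genes called higher. Ccl20, a chemokine, was at 0.752 and 0.276 FPKM in WT, between 0.119 and 0.438 in the KO and KH libraries, and at 48.1 and 38.8 in DKO (log2 fold change 4.89, limma adjusted p = 3.5e-05). Tslp, a cytokine of stressed keratinocytes, was at 0.133 and 0.309 FPKM in WT and at 1.42 and 3.02 in DKO (log2 fold change 1.36, limma adjusted p = 0.0245). H60c, a keratinocyte ligand of the receptor NKG2D, was at 89.1 and 129 FPKM in WT, at 31.4, 40.5 and 65.7 in the KO libraries, at 31.6 and 33.8 in those of KH, and at 32.2 and 27.7 in DKO. All 7 libraries without Esrp1 were below both WT libraries for H60c, and its log2 fold change in DKO was -1.81 (limma adjusted p = 0.0598).

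The layers of the epidermis were compared by listed genes. All 8 spinous layer genes listed had a log2 fold change below 0 in DKO against WT, with a median of -1.25 and Krtdap the nearest to 0 at -0.00067, and so did all 12 granular and cornified layer genes, with a median of -0.54. None of either list was called. Against KO and KH, the granular and cornified layer genes had medians of 0.15 each in DKO, with 8 and 9 of 12 above 0, and the spinous layer genes had medians of -0.56 and -0.35, with 7 and 6 of 8 below 0. The Skint genes had medians of -0.82 and -1.02 in the same comparisons. Of 8 basal layer genes, 6 had a log2 fold change above 0, with a median of 0.35 and none called. In DKO replicate 1 the granular and cornified layer sum was 21998 FPKM, within the range of the WT libraries. In that library Skint2 was at 6.19, Skint4 at 4.16 and Skint5 at 2.36 FPKM, all below every WT, KO and KH value. The spinous layer genes Krt77, Dsc1 and Calml3 were there at 22.6, 59.4 and 360 FPKM, also below every WT, KO and KH value. The other spinous genes listed were not, and the spinous list summed to 61202.9 FPKM there, against 63489 and 76595.5 in WT. With the granular and cornified layer sum as a term, Skint2, Skint4, Skint5 and Skint10 were called lower in DKO, as given above. No fit took the spinous layer sum as a term. Of 11 genes of Langerhans cells, 10 were tested in DKO against WT, 9 of them had a log2 fold change above 0, with a median of 0.73, 3 had an unadjusted p below 0.05, against 13.8% of all genes in either direction, and none was called. The list summed to 43.7 and 23.1 FPKM in WT, to 92.8 and 42.8 in DKO and to 37.2 to 106 in the KO and KH libraries. Its defining marker Cd207 was at 0 in 8 of 9 libraries and at 0.0288 FPKM in DKO replicate 1, and Cd74, the invariant chain of class II histocompatibility molecules, averaged 2.69 FPKM in WT and 11.9 in DKO (limma adjusted p = 0.288).

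Markers of other cells gave the following. The 7 melanocyte genes all had a log2 fold change above 0 in DKO against WT (median 1.25, none called), and summed to 45.8 and 51.2 FPKM in WT and 99.0 and 216 in DKO. Of 11 tested genes of other immune cells 2 were called higher, S100a8 and S100a9, which keratinocytes under stress also make. Of 10 hair follicle genes 1 was called higher, with a list median of 0.49. Both counts stand against the same 0.479% of all genes. The hair follicle gene called was Krt75, at a very low level, averaging 0.00816 FPKM in WT and 0.449 in DKO. The 9 dermal fibroblast genes summed to 251 to 493 FPKM over the 9 libraries and the 4 red blood cell genes to 5.93 to 559 FPKM, while 5 endothelial genes stayed at or below 0.339 and 6 skeletal muscle genes at or below 0.932 FPKM in sum. The part of these cells in the Skint values was not tested.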

How the data were processed

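RNA from the epidermis, peeled from E18.5 embryo skin after trypsin at low temperature, was sequenced in 9 libraries. The authors aligned reads with TopHat 1.4.1 to mm10 and Ensembl release 72 and deposited FPKM per gene and library from Cuffdiff 2.2.0. Multi-mapping reads and the scaling between libraries are not given in the sources used here, and FPKM hold no read counts. The deposited averages per genotype were not used.

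Values were fitted as log2(FPKM + 1) with limma 3.58.1 (R 4.3.3) over all 9 libraries with a mean per genotype and an intensity trend, so a fold change understates that of low genes. Genes averaging above 0.1 FPKM in at least 1 genotype were tested, with Benjamini-Hochberg adjustment over 16897. Called means an adjusted p below 0.05 and over 2-fold in average FPKM. The fit was tested on simulated data. Exact permutation tests used scipy. Each embryo was a separate sample. The members and lists were chosen with earlier results of these data known. Named genes were the members, fixed marker and pathway lists, the locus, and the genes most alike (the 8 nearest to the mean profile, 3 to each member, of which only those of Skint2, Skint3 and Skint5 are reported here). Coding sequences came from GENCODE M21, promoters from RefSeq.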

Additional observations from a re-analysis of the deposited data

How the results depend on the processing

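The number of members called in DKO against WT was 0 and ranged from 0 to 2 when 1 library was left out (1 without KO replicate 3 or KH replicate 1, 2 without KH replicate 2). It was 1 with a pseudocount of 0.1 or median ratio scaling, 2 with a filter at an average of 1 FPKM, 3 with a transcript length correction, 4 with TPM, arrayWeights or the granular and cornified layer sum as a term, and 5 with only the 2 genotypes fitted. It was 3, 1 and 3 in DKO against KO with TPM, the length correction and the layer sum. In DKO against KH it was 1 with TPM, 3 with the layer sum, and 0 to 1 over the libraries left out (1 without KH replicate 1). In these alternatives between 0.152% and 1.81% of all genes were called lower. The slope gave 6 with arrayWeights, a fit for which the share of all genes called was not computed, so that this count cannot be set against it. No other alternative called a member in any comparison. With the replicate block the count was 0 in every comparison. The replicate numbers share only a number, since deviations of same-numbered libraries correlated between -0.599 and 0.490. TPM moved the median of all genes in DKO against KH by -0.11, and the share of lower calls from 34.1% to 46.1% in DKO against WT, from 18.52% to 32.2% against KO and from 9.72% to 26.8% against KH.

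Over 24 alternatives, Skint2, Skint3, Skint4, Skint5, Skint7, Skint8, Skint9 and Skint10 kept their direction in DKO against WT. The adjusted p of Skint5 ranged from 0.00289 to 0.475, that of Skint4 from 0.0159 to 0.520 and that of Skint2 from 0.0123 to 0.549. Skint1 turned to 0.22 with embryo sex as a term, 0.36 with the layer sum and 0.45 without the 3 libraries low in layer genes, and ranged from -0.61 to 0.45 over the libraries left out. Skint6 turned to 0.11 without those 3 libraries and ranged from -1.80 to 0.11. In KO against WT, Skint2 turned to 0.036 with the layer sum, and without the 3 libraries Skint2 and Skint6 turned to 0.057 and 0.028 (left out 1 at a time, -0.68 to 0.057 and -0.81 to 0.028). In KH against WT, Skint2 and Skint6 turned to 0.10 and 0.18 with the layer sum. Without the 3 libraries, KH values were 0.091 for Skint2, 0.093 for Skint6, 0.71 for Skint7, 0.28 for Skint8 and 0.074 for Skint9, and their lowest values with 1 library left out were -0.90, -1.03, -1.71, -1.56 and -1.22. All 10 members stayed lower than WT under TPM, median ratio and quantile scaling in DKO, KO and KH. With 2 or 3 libraries a genotype and no read counts, small differences could not be resolved.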
